A study of Mus musculus with 104 samples.

Results

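The addition of TGF-beta to DLL4 was examined in bone marrow-derived macrophages (BMDMs) of C57BL/6J mice at 72 h, over all genes of the table. The comparison holds 4 of the 104 samples of the series. Of these, 2 libraries came from BMDMs given DLL4 and TGF-beta, and 2 came from BMDMs given DLL4 without TGF-beta. They were selected by the treatment and time in the names of their columns. BMDMs are macrophages grown in culture from bone marrow progenitors, and the labels name no transgene, floxed allele or Cre driver for these mice. The labels give all 4 libraries the same strain, day of culture and DLL4, and TGF-beta is the labelled difference between the 2 groups. The contrast is therefore read as the response to TGF-beta on a background of Notch stimulation. The labels conflict on time. The titles give 72 h, and the sample characteristics of the same libraries give 24 h of treatment in cells at day 6 of culture. The matching 24 h libraries carry 24 h in both places and day 4 of culture. The titles were followed here. The labels do not say whether replicates were separate animals or separate cultures. P-values therefore measure only the spread between replicate libraries, estimated over all 18 libraries of the table and not over these 4 alone.

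Several other groups served for comparison. At 24 h, C57BL/6J BMDMs were given DLL4 and TGF-beta or DLL4 alone, with 2 libraries each. Untreated BMDMs were sequenced at 24 h and at 72 h, and BMDMs given DLL4, TGF-beta and DMHCA, a synthetic activator of the sterol-sensing liver X receptors (LXR), at 72 h. A second table holds Smad4-deleted BMDMs and Smad4 flox/flox BMDMs given DLL4 and TGF-beta or DLL4 alone for 24 h. The labels of the Smad4-deleted cells name the Cre driver Clec4f-cre, while the design text of the series names LysM-cre. Clec4f is a gene of Kupffer cells, and LysM-cre acts in myeloid cells at large. Another table holds bone marrow monocytes of C57BL/6J mice, cultured and treated in the same 2 ways for 48 h.

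TGF-beta binds a pair of serine/threonine kinase receptors that phosphorylate SMAD2 and SMAD3, which join SMAD4 and enter the nucleus to change transcription. DLL4 is a ligand of Notch receptors, whose cleaved intracellular part acts with RBPJ on a separate set of target genes. In macrophages of tissues such as liver, brain and lung, TGF-beta family signals are known to help set tissue-specific gene programmes, and in the liver both signals reach monocytes that enter the Kupffer cell niche.

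Expression was given as TPM, a read share per gene scaled for transcript length and library size. The table covered 24940 genes, of which 10908 reached 4 TPM in at least 2 libraries and were tested. The low values gave back whole reads, and by these the 4 libraries held between 11137929 and 13278017 reads in genes. The macrophage genes Adgre1, Csf1r and Cd68 were present in all 4 libraries. Adgre1, which encodes F4/80, had 158.8 and 147 TPM with DLL4 and TGF-beta, against 258 and 259.6 TPM with DLL4 alone. Csf1r, the receptor for the growth factor that sustains these cells, had 521 and 517 TPM with DLL4 and TGF-beta, against 761 and 757 TPM with DLL4. Cd68 had 1611 and 1573 TPM with DLL4 and TGF-beta, against 1685 and 1684 TPM with DLL4. Both Adgre1 and Csf1r were lower with TGF-beta by less than 2-fold, and the log2 difference of Cd68 was -0.08 ± 0.06.

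A gene was called when limma's Benjamini-Hochberg adjusted p was below 0.05 and the groups differed at least 2-fold on the log2(TPM + 1) scale. Each difference below is the mean with DLL4 and TGF-beta minus the mean with DLL4, with its standard error (SE). By this rule 616 genes were called (5.65% of those tested), of which 439 were higher (4.02%) and 177 were lower (1.62%) with TGF-beta. The counts of called list members below are to be read beside these shares. The 2 libraries of one group lay wholly above or below the 2 of the other for 7501 genes (68.8%). The 15 genes per direction named below for size had to meet this, so for them separate groups are no added result. The median difference of all tested genes was 0.11, with 7201 genes above 0 and 3699 below it. Quantile normalization brought that median to -0.01 and gave 393 higher and 244 lower genes, so that higher genes made up 61.7% of the calls, against 71.3% without it.

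**Figure D1:**
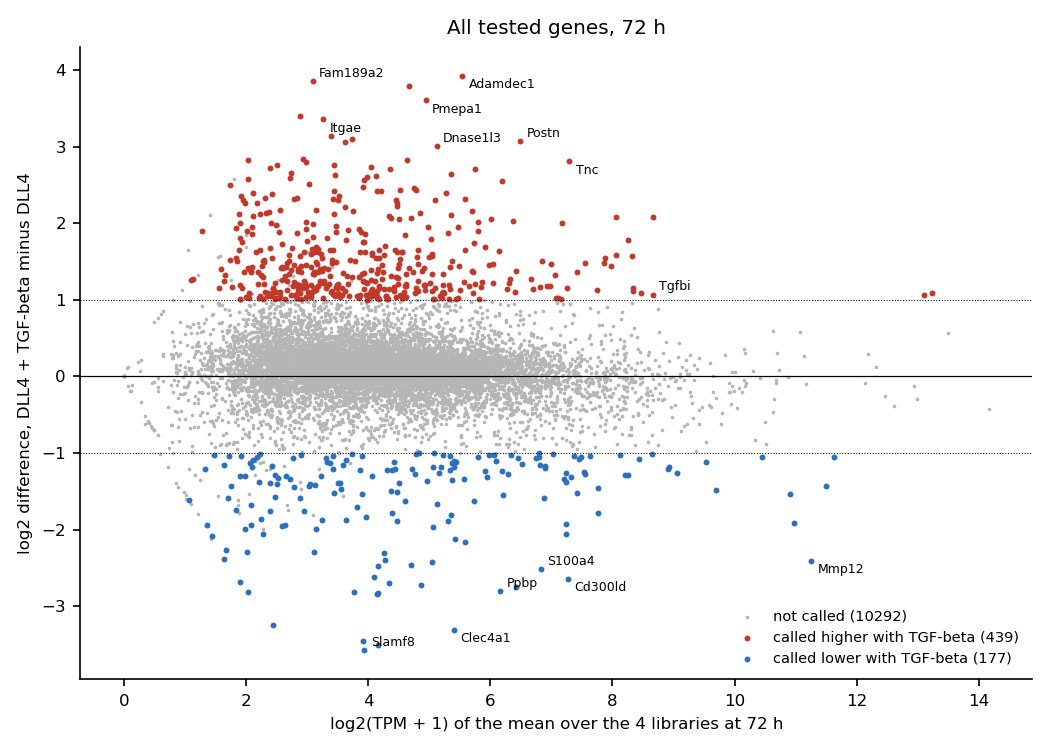
Each point is one of 10908 tested genes in the 4 libraries at 72 h. The horizontal axis is the mean level in log2(TPM + 1), and the vertical axis is the log2 difference, DLL4 and TGF-beta minus DLL4. Coloured points are the 439 genes called higher and the 177 called lower with TGF-beta.

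Feedback genes of the TGF-beta pathway were among those that rose. Of 23 tested members of a list of TGF-beta feedback genes and SMAD targets, 10 rose and none fell, beside 4.02% of all genes called higher, and the list's median difference was 0.92. Pmepa1, which encodes a membrane protein that sequesters SMADs away from the receptor, had 56.4 and 55.3 TPM with DLL4 and TGF-beta, against 3.65 and 3.67 TPM with DLL4 (log2 difference 3.61 ± 0.11, adjusted p = 1.36e-10). Smad7, the inhibitory SMAD that turns receptors over, had 33.7 and 35.1 TPM with DLL4 and TGF-beta, against 10.8 and 10.3 TPM with DLL4 (log2 difference 1.62 ± 0.08, adjusted p = 3.88e-09). The groups did not overlap for either gene. On the log2 scale, Skil, which encodes the SMAD co-repressor SnoN, rose by 1.18 ± 0.07, the receptor-binding inhibitor gene Ldlrad4 by 1.33 ± 0.18, and Spsb1, which encodes an adaptor that targets the type II receptor, by 2.61 ± 0.10.

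Secreted and matrix targets on the same list rose as well. Tgfbi, a matrix adhesion protein named for its induction by TGF-beta, had 549 and 546 TPM with DLL4 and TGF-beta, against 257 and 265 TPM with DLL4 (log2 difference 1.07 ± 0.04, adjusted p = 1.4e-09). Both libraries with TGF-beta stood above both DLL4 libraries. Ctgf rose by 1.79 ± 0.16 and Cyr61 by 1.23 ± 0.16, both matricellular proteins of one family. Itgae, the integrin alpha chain CD103, stood at 16.5 and 16.5 TPM with DLL4 and TGF-beta and was under 1 TPM in both DLL4 libraries, at 0.548 and 0.889 TPM (log2 difference 3.36 ± 0.19, adjusted p = 2.31e-08).

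Of the ligands, receptors and SMADs themselves, 1 of 21 tested members rose (4.8%, beside 4.02% of all genes) and none fell. The riser was Inhba, the activin subunit, with 88.4 and 95.4 TPM with DLL4 and TGF-beta, against 13.4 and 13.1 TPM with DLL4 (log2 difference 2.70 ± 0.16, adjusted p = 3.44e-08). Tgfbr1, the type I receptor, stood at 305 and 318 TPM with DLL4 and TGF-beta, against 164 and 167 TPM with DLL4. Its difference of 0.91 ± 0.06 was under 2-fold. Tgfbr2 differed by 0.35 ± 0.06 and Tgfb1 by 0.22 ± 0.08. Smad3 was at 3.1 and 4.64 TPM with DLL4 and TGF-beta and at 4.31 and 4.92 TPM with DLL4, and its adjusted p was 0.295 in limma's test.

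The windows upstream of 5 called genes were searched for CAGAC, the core of SMAD-binding elements, and 3 are shown because they carry it more than once. Tgfbi lies at chr13:56609586-56639359, plus strand, Ptgs2 at chr1:150100031-150108234, plus strand and Nrarp at chr2:25180758-25183332, plus strand in mm10. Each window holds the 250 bases before the gene's start, from RefSeq's GRCm38.p6 annotation, read 5′ to 3′ along the gene's strand, and capitals mark CAGAC or its reverse complement GTCTG. The windows are chr13:56609336-56609585 for Tgfbi, chr1:150099781-150100030 for Ptgs2 and chr2:25180508-25180757 for Nrarp, all on the plus strand.
Tgfbi: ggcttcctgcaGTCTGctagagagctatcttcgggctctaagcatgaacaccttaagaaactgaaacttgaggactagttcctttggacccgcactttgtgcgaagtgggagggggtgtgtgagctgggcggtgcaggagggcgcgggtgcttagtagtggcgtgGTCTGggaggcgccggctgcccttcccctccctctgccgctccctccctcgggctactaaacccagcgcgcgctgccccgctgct
Ptgs2: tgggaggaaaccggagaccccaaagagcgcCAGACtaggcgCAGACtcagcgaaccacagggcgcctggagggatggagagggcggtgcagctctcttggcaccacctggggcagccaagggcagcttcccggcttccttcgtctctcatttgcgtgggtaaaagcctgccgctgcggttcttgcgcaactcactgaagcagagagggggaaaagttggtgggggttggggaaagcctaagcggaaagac
Nrarp: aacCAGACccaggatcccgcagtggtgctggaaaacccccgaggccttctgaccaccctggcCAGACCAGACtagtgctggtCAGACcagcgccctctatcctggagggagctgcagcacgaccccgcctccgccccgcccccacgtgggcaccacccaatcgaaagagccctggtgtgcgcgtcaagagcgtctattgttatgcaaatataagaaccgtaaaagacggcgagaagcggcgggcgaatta
The Tgfbi window holds 2 matches, both GTCTG, the Ptgs2 window 2, both CAGAC, and the Nrarp window 4, all CAGAC. Of 32851 RefSeq windows of this length, 42.2% hold at least 1 match on either strand, 11.7% at least 2 and 0.475% at least 4. Of the windows not shown, that of Ccl9, which fell, holds 0 matches, and the 2 windows of Postn, which rose, hold 1 and 0. A match is a run of letters and says nothing by itself about binding of a SMAD.

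Adamdec1, a secreted disintegrin-type metalloprotease of mucosal macrophages, rose most among named genes with a mean of at least 10 TPM. Adamdec1 had 84.6 and 88.3 TPM with DLL4 and TGF-beta, against 4.7 and 4.81 TPM with DLL4 (log2 difference 3.93 ± 0.20, adjusted p = 8e-09). Fam189a2, which encodes a membrane protein, had 15.9 and 14.1 TPM with DLL4 and TGF-beta, against 0.118 and 0.089 TPM with DLL4 (log2 difference 3.86 ± 0.19, adjusted p = 5.42e-09). In both cases each TGF-beta library exceeded each DLL4 library by over 10-fold.

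The 15 risers named for the size of their difference also held Nt5e, Lag3, Cd101 and Pald1. Nt5e, the ecto-nucleotidase CD73 that makes adenosine, had 16.04 and 19.5 TPM with DLL4 and TGF-beta, against 1.004 and 1.24 TPM with DLL4 (log2 difference 3.14 ± 0.15, adjusted p = 4.24e-09). Lag3, a receptor known for restraining T cells, had 21.2 and 20.6 TPM with DLL4 and TGF-beta, against 1.35 and 1.93 TPM with DLL4 (log2 difference 3.06 ± 0.19, adjusted p = 4.8e-08). The groups did not overlap for either, as the rule for naming them required. Cd101, an immunoglobulin-superfamily glycoprotein, rose by 2.84 ± 0.16, and Pald1, a phosphatase-domain protein, by 3.10 ± 0.08.

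Other strong risers were Plet1, Mirt2 and Dnase1l3. Plet1, a surface antigen of epithelial and myeloid cells, had 10.8 and 14.3 TPM with DLL4 and TGF-beta, against 0.379 and 0.184 TPM with DLL4 (log2 difference 3.40 ± 0.29, adjusted p = 9.26e-07), but it overlaps the antisense gene Plet1os, and the strand setting of the counting is not given in the sources used here, so its reads cannot be assigned with certainty. The long non-coding RNA gene Mirt2 rose by 2.80 ± 0.22. Dnase1l3, a secreted DNase of macrophages and dendritic cells, had 59.5 and 62.2 TPM with DLL4 and TGF-beta, against 6.24 and 7.23 TPM with DLL4. Its 2 groups stood apart (log2 difference 3.00 ± 0.43, adjusted p = 0.000103). The SE of Dnase1l3 comes from the spread over all 18 libraries of the table, which includes the DMHCA pair at 5.26 and 25.7 TPM.

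**Figure D2:**
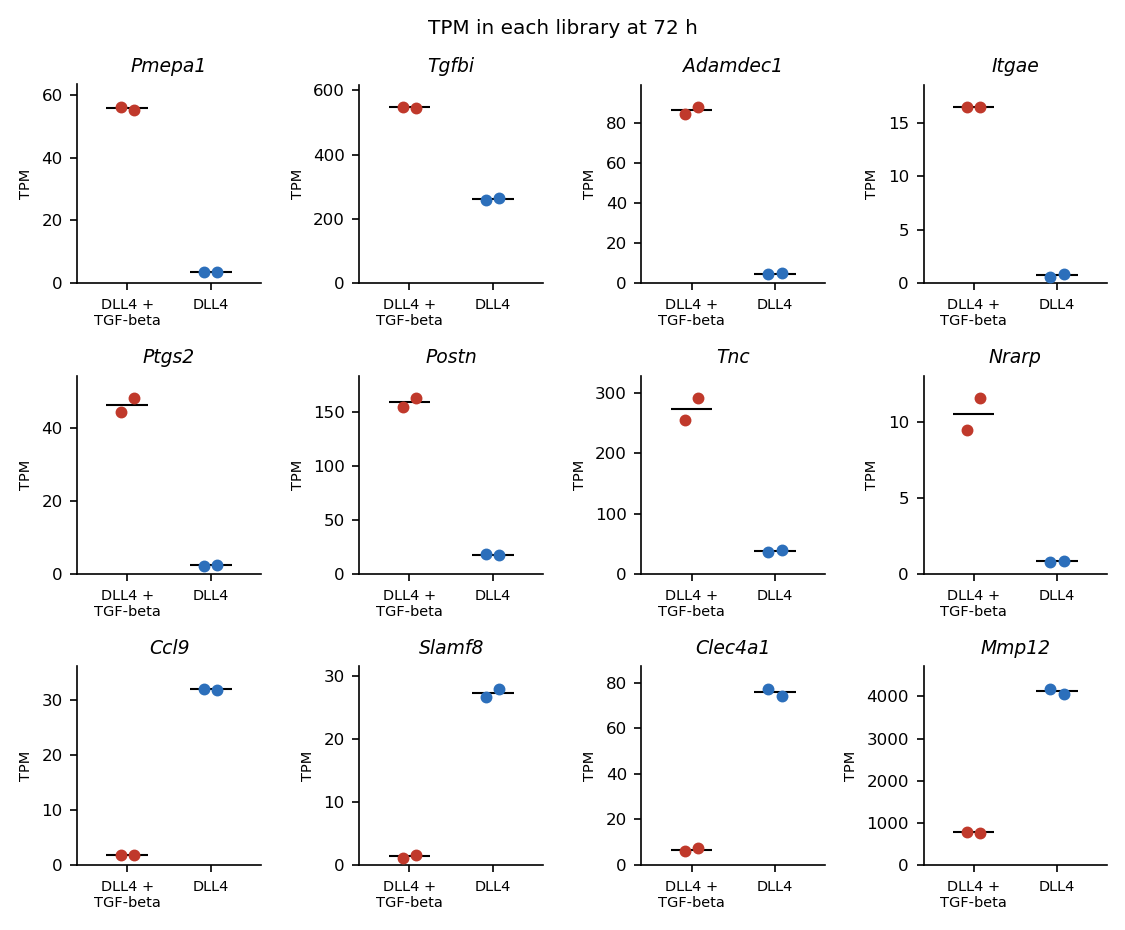
Levels of 12 genes in the 4 libraries at 72 h, with DLL4 and TGF-beta left of DLL4 in each panel. Points are single libraries and bars are means in TPM. Pmepa1, Tgfbi, Adamdec1, Itgae, Ptgs2, Postn, Tnc and Nrarp are higher in both libraries with TGF-beta, and Ccl9, Slamf8, Clec4a1 and Mmp12 are lower in both.

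Some genes of eicosanoid synthesis and breakdown rose. On a prostaglandin and leukotriene list, 4 of 13 tested members rose (30.8%, beside 4.02% of all genes) and none fell. Ptgs2, the inducible cyclooxygenase COX-2 that starts prostaglandin synthesis, had 44.4 and 48.4 TPM with DLL4 and TGF-beta, against 2.31 and 2.54 TPM with DLL4 (log2 difference 3.79 ± 0.11, adjusted p = 7.77e-11). Ltc4s, leukotriene C4 synthase, had 73.7 and 65.98 TPM with DLL4 and TGF-beta, against 11.4 and 9.34 TPM with DLL4 (log2 difference 2.64 ± 0.24, adjusted p = 1.72e-06). Neither gene's groups overlapped. Alox5, the 5-lipoxygenase upstream of Ltc4s, rose by 1.48 ± 0.12, and Hpgd, which inactivates prostaglandins, by 1.20 ± 0.14. Tbxas1, thromboxane synthase, was lower by less than 2-fold, at 86.2 and 88.6 TPM with DLL4 and TGF-beta and 121 and 123 TPM with DLL4 (log2 difference -0.48 ± 0.07).

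Genes of the extracellular matrix and contractile cytoskeleton made up the list with the most calls. Of 22 tested members, 13 rose (59.1%, beside 4.02% of all genes) and none fell, with a median difference of 1.08. Fn1, fibronectin, had 397 and 458 TPM with DLL4 and TGF-beta, against 92.2 and 109 TPM with DLL4 (log2 difference 2.08 ± 0.15, adjusted p = 2.08e-07). Lox, the lysyl oxidase that cross-links collagen and elastin, had 117 and 131 TPM with DLL4 and TGF-beta, against 19.3 and 21.2 TPM with DLL4 (log2 difference 2.56 ± 0.14, adjusted p = 1.79e-08). Each TGF-beta library exceeded each DLL4 library for both genes. Loxl2 rose by 2.07 ± 0.13, Col1a1 by 1.23 ± 0.20, Col1a2 by 1.21 ± 0.15 and Col5a1 by 1.46 ± 0.13, while Col3a1 differed by 0.72 ± 0.17 and was not called. Of the smooth-muscle genes, Acta2 had 359 and 375 TPM with DLL4 and TGF-beta, against 129.9 and 139 TPM with DLL4, and rose by 1.44 ± 0.19, Tagln by 1.48 ± 0.15, Tpm1 by 1.13 ± 0.07 and Myl9 by 1.10 ± 0.12. Myl9 missed 2-fold without DLL4 and TGF-beta replicate 2 (0.97).

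Outside that list, the matricellular genes Postn and Tnc were also among the 15 risers named for size. Postn, periostin, had 155 and 164 TPM with DLL4 and TGF-beta, against 18.2 and 17.97 TPM with DLL4 (log2 difference 3.07 ± 0.12, adjusted p = 8.98e-10). Tnc, tenascin-C, had 255 and 292 TPM with DLL4 and TGF-beta, against 36.3 and 39.9 TPM with DLL4 (log2 difference 2.81 ± 0.17, adjusted p = 4.82e-08). Cnn1, calponin of smooth muscle, had 16.3 and 19.6 TPM with DLL4 and TGF-beta, against 1.71 and 1.89 TPM with DLL4 (log2 difference 2.75 ± 0.20, adjusted p = 1.6e-07). For all 3 genes the groups were separate, as the rule for naming them required. One collagen gene went the other way: Col6a1 had 6.09 and 8.07 TPM with DLL4 and TGF-beta, against 41.3 and 45.04 TPM with DLL4, and fell (log2 difference -2.46 ± 0.17).

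Most of these matrix genes also mark fibroblasts and other stromal cells. Of 10 markers on a fibroblast and stroma list, 6 were tested and 4 of them rose (66.7%, beside 4.02% of all genes). The risers were Col1a1, Col1a2, Cxcl12 and Postn. The summed level of all 10 was 389.2 and 414.1 TPM with DLL4 and TGF-beta, against 121.2 and 128.7 TPM with DLL4. Of the 4 markers too low to be tested, Dcn had 1.66 and 1.585 TPM with DLL4 and TGF-beta, against 1.96 and 2.59 TPM with DLL4. Pdgfra had 0.95 and 0.978 TPM with DLL4 and TGF-beta, against 0.894 and 1.17 TPM with DLL4, and Lum and Lepr were under 1 TPM in all 4 libraries. At 24 h Acta2 stood at 7.89 and 10.7 TPM with DLL4 and TGF-beta and 11.9 and 7.71 TPM with DLL4, far below its level in either group at 72 h. In bulk libraries more cells of one type and more RNA per cell cannot be told apart, and the part of stromal cells in the result was not tested.

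Matrix-cutting enzymes and their inhibitors split in direction. Of 13 tested members of a list of metalloproteinases and their inhibitors, 6 rose (46.2%) and 3 fell (23.1%), beside 4.02% and 1.62% of all genes. Mmp12, the macrophage elastase, had 779 and 771 TPM with DLL4 and TGF-beta, against 4185 and 4046 TPM with DLL4 (log2 difference -2.41 ± 0.06, adjusted p = 3.08e-11). Mmp13, a collagenase, had 57.4 and 57.3 TPM with DLL4 and TGF-beta, against 237 and 246 TPM with DLL4 (log2 difference -2.05 ± 0.09, adjusted p = 2.91e-09). Both were lower in each TGF-beta library, and Mmp27 fell (-1.30 ± 0.22), although it missed 2-fold narrowly without DLL4 and TGF-beta replicate 2 (-0.9997). On the rising side, Mmp14, the membrane-bound collagenase, had 180.2 and 193 TPM with DLL4 and TGF-beta, against 66.2 and 67.7 TPM with DLL4 (log2 difference 1.46 ± 0.07, adjusted p = 3.34e-09). The gelatinase genes Mmp9 and Mmp2 rose by 1.65 ± 0.21 and 1.59 ± 0.11, the inhibitor genes Timp1 and Timp3 by 2.00 ± 0.19 and 1.63 ± 0.13, and Adam19 by 1.17 ± 0.12. Of 14 integrin genes tested, Itga5 (1.50 ± 0.05), Itgav (1.32 ± 0.06) and Itgae rose (21.4%, beside 4.02% of all genes). Itgb7, the beta chain that pairs with Itgae, fell (-1.02 ± 0.05) and lost its call without DLL4 and TGF-beta replicate 1, when its difference was -0.98.

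Some components of the Notch pathway were higher with TGF-beta than with DLL4 alone. Of 8 tested Notch target genes, out of 17 on the list, 2 rose (25.0%) and none fell. Of 19 tested receptors, ligands and regulators 3 rose (15.8%) and none fell, beside 4.02% of all genes called higher. Nrarp, a Notch target that feeds back on the Notch complex, had 9.47 and 11.6 TPM with DLL4 and TGF-beta, against 0.774 and 0.879 TPM with DLL4 (log2 difference 2.65 ± 0.19, adjusted p = 2.08e-07). Hey1, a repressor of the HES/HEY family, had 7.32 and 6.77 TPM with DLL4 and TGF-beta, against 1.59 and 1.44 TPM with DLL4 (log2 difference 1.68 ± 0.16, adjusted p = 2.83e-06). Hes1, the best known target, had 29.7 and 28.7 TPM with DLL4 and TGF-beta, against 15.8 and 14.6 TPM with DLL4, and its difference of 0.90 ± 0.14 was under 2-fold. Among receptors, Notch4 had 5.28 and 4.71 TPM with DLL4 and TGF-beta, against 0.424 and 0.567 TPM with DLL4, and rose by 2.00 ± 0.17. Notch1 rose by 1.00 ± 0.09, just past 2-fold, and lost its call without DLL4 and TGF-beta replicate 2 (0.99) and after quantile normalization (0.92). The ligand gene Jag1 rose by 1.35 ± 0.10.

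Genes that mark microglia, brain macrophages whose identity is known to need TGF-beta, were called higher in 9 cases. Of 20 members of a microglia-type list tested, 9 rose (45.0%, beside 4.02% of all genes) and none fell, with a median difference of 0.68. Fcrls, an Fc-receptor-like gene, had 29.3 and 26.4 TPM with DLL4 and TGF-beta, against 3.47 and 3.19 TPM with DLL4 (log2 difference 2.73 ± 0.10, adjusted p = 4.02e-10). Cx3cr1, the fractalkine receptor, had 41.7 and 48.9 TPM with DLL4 and TGF-beta, against 7.17 and 8.02 TPM with DLL4 (log2 difference 2.43 ± 0.11, adjusted p = 3.01e-09). The groups did not overlap for either. Untreated BMDMs at 72 h had 36.0 and 31.9 TPM of Fcrls and 3.477 and 3.185 TPM of Cx3cr1. Olfml3 rose by 2.06 ± 0.11, Tmem119 by 1.25 ± 0.16, the adhesion receptor gene Adgrg1 by 1.19 ± 0.14 and the ADP receptor gene P2ry12 by 1.05 ± 0.11. P2ry12 missed 2-fold without DLL4 replicate 2 (0.95) and after quantile normalization (0.94). Sparc and Ltc4s, also on the list, rose by 1.54 ± 0.14 and 2.64 ± 0.24. Sall1, the transcription factor that defines microglia in vivo, was under 1 TPM in all 4 libraries.

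Kupffer cell genes moved in both directions. Of 19 tested members 5 rose (26.3%) and 3 fell (15.8%), beside 4.02% and 1.62% of all genes. Vsig4, the complement receptor of Kupffer cells, had 36.1 and 33.4 TPM with DLL4 and TGF-beta, against 3.85 and 5.16 TPM with DLL4 (log2 difference 2.71 ± 0.29, adjusted p = 7.12e-06). Il18bp, a secreted decoy for interleukin-18, had 145 and 141 TPM with DLL4 and TGF-beta, against 60.0 and 57.4 TPM with DLL4 (log2 difference 1.28 ± 0.11, adjusted p = 9.03e-07). The receptor tyrosine kinase gene Axl rose by 1.17 ± 0.08, and Dnase1l3, given above, was another. Vcam1 was the last of the 5, at 170.3 and 176 TPM with DLL4 and TGF-beta and 72.7 and 79.3 TPM with DLL4 (log2 difference 1.18 ± 0.38, adjusted p = 0.0253). Its SE too comes from all 18 libraries, among them the DMHCA pair at 5.17 and 20.3 TPM. Its call was lost without any one of the 4 libraries, with an adjusted p between 0.0729 and 0.11, and with no filter on low values (0.0528).

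The iron exporter gene Slc40a1 fell, with 290.1 and 302 TPM with DLL4 and TGF-beta, against 676 and 672 TPM with DLL4 (log2 difference -1.18 ± 0.05, adjusted p = 8.73e-10). The folate receptor gene Folr2 had 20.0 and 14.8 TPM with DLL4 and TGF-beta, against 35.5 and 36.4 TPM with DLL4 (log2 difference -1.02 ± 0.10, adjusted p = 4.15e-06). For both genes the TGF-beta libraries were lower throughout, and Folr2 missed 2-fold without DLL4 and TGF-beta replicate 2 (-0.82). The scavenger receptor gene Marco fell (-1.16 ± 0.23) at levels under 4 TPM and lost its call without DLL4 replicate 2 (-0.94). Clec4f and Timd4, which define resident Kupffer cells, were under 1 TPM in all 4 libraries. On a list of 15 tested iron and haem genes, Slc40a1 and the biliverdin reductase gene Blvrb (-1.02 ± 0.05) fell and none rose. That is 13.3% lower, beside 1.62% of all genes. Blvrb lay at the 2-fold limit and was past it neither without DLL4 replicate 1 nor after quantile normalization (-0.995 each).

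Among lipid genes, 3 apolipoprotein genes rose, and Lpl and Cd36 fell. Apoe, which carries cholesterol out of macrophages, had 11908 and 11719 TPM with DLL4 and TGF-beta, against 5816 and 5514 TPM with DLL4 (log2 difference 1.06 ± 0.06, adjusted p = 1.59e-08). Apoc2, an activator of lipoprotein lipase from the same cluster, had 64.2 and 58.7 TPM with DLL4 and TGF-beta, against 15.3 and 16.8 TPM with DLL4 (log2 difference 1.87 ± 0.18, adjusted p = 3.55e-06). These genes and Apoc1 (1.65 ± 0.22) were the 3 risers among 17 LXR targets tested (17.6%, beside 4.02% of all genes), none of which fell. Abca1, the cholesterol efflux pump, had 59.6 and 64.4 TPM with DLL4 and TGF-beta, against 47.2 and 49.02 TPM with DLL4, a difference of 0.36 ± 0.11 that was not called.

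Lpl, lipoprotein lipase, had 832 and 848 TPM with DLL4 and TGF-beta, against 3114 and 3218 TPM with DLL4 (log2 difference -1.91 ± 0.05, adjusted p = 4.66e-11). Cd36, the fatty acid and oxidized lipoprotein receptor, had 1003 and 971 TPM with DLL4 and TGF-beta, against 2846 and 2862 TPM with DLL4 (log2 difference -1.53 ± 0.06, adjusted p = 8.18e-10). Lgals3, galectin-3, had 2124 and 1973 TPM with DLL4 and TGF-beta, against 4349 and 4132 TPM with DLL4 (log2 difference -1.05 ± 0.05, adjusted p = 4.02e-09). All 3 were lower in each TGF-beta library, and with Apoe as the riser they were the 4 called members of 15 on a lipid-associated macrophage list. The list thus had 6.7% higher and 20.0% lower, beside 4.02% and 1.62% of all genes. Quantile normalization ended the calls of Cd36 (-0.998) and Lgals3 (-0.47), and Lgals3 also missed 2-fold without DLL4 and TGF-beta replicate 2 (-0.997). None of 23 cholesterol synthesis and uptake genes tested was called by limma. Of these, 12 had an unadjusted p below 0.05, and limma-voom on the recovered reads called none. Of 12 fatty acid synthesis genes, the desaturase gene Fads2 alone was called (1.25 ± 0.11).

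The lowest genes relative to DLL4 included a chemokine and several surface receptors. Slamf8, a SLAM-family receptor of myeloid cells, had 1.18 and 1.58 TPM with DLL4 and TGF-beta, against 26.7 and 27.96 TPM with DLL4 (log2 difference -3.58 ± 0.16, adjusted p = 2.44e-09). Ccl9, a chemokine made by macrophages, had 1.88 and 1.9 TPM with DLL4 and TGF-beta, against 32.1 and 31.9 TPM with DLL4 (log2 difference -3.51 ± 0.07, adjusted p = 5.01e-12). F7, coagulation factor VII, had 2.21 and 0.968 TPM with DLL4 and TGF-beta, against 25.8 and 27.3 TPM with DLL4 (log2 difference -3.45 ± 0.19, adjusted p = 1.5e-08). Each group's 2 libraries stood apart from the other group's for the 3 genes, as the rule for naming them required.

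Cd300ld, a receptor of the CD300 family, had 40.3 and 43.2 TPM with DLL4 and TGF-beta, against 270.1 and 262 TPM with DLL4 (log2 difference -2.64 ± 0.06, adjusted p = 1.96e-11). S100a4, a calcium-binding protein of monocytes and motile cells, had 32.1 and 33.5 TPM with DLL4 and TGF-beta, against 197 and 189 TPM with DLL4 (log2 difference -2.52 ± 0.14, adjusted p = 1.24e-08). The cell-cycle inhibitor gene Cdkn1c (p57) had 23.7 and 18.9 TPM with DLL4 and TGF-beta, against 149 and 148 TPM with DLL4 (log2 difference -2.75 ± 0.14, adjusted p = 8.05e-09). The groups were separate for these genes too, as the same rule required. The remaining genes of the 15 that fell most were Serpinb9b (-2.83 ± 0.19), the platelet chemokine gene Ppbp (-2.80 ± 0.37), the hyaluronan receptor gene Layn (-2.72 ± 0.13), the endothelin receptor gene Ednrb (-2.69 ± 0.13), Prg2, an eosinophil granule protein (-2.62 ± 0.41), the elongation factor gene Eef1a2 (-2.47 ± 0.18), Dcstamp, Clec4a1 and Col6a1.

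Many C-type lectin receptors were lower with TGF-beta: 6 of 12 tested members fell, 1 rose, and the median difference was -0.96, beside 1.62% of all genes called lower. Clec4a1, a receptor of the DCIR family, had 6.19 and 7.37 TPM with DLL4 and TGF-beta, against 77.5 and 74.3 TPM with DLL4 (log2 difference -3.31 ± 0.14, adjusted p = 1.52e-09). Clec7a, dectin-1, which binds fungal beta-glucan, had 432 and 444 TPM with DLL4 and TGF-beta, against 1237 and 1209 TPM with DLL4 (log2 difference -1.48 ± 0.12, adjusted p = 5.05e-07). The DLL4 libraries were higher throughout for both. Clec4a3 (-2.43 ± 0.07), Clec4a2 (-1.36 ± 0.11), Clec12a (-1.31 ± 0.08) and Clec10a (-1.03 ± 0.17) fell as well. The exception was Clec5a, a DAP12-coupled receptor, which rose by 1.05 ± 0.09. Clec10a missed 2-fold without DLL4 and TGF-beta replicate 1 (-0.81), as did Clec5a without that library (0.94), without DLL4 replicate 2 (0.999) and after quantile normalization (0.94).

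Of 13 chemokine genes tested, 2 rose (15.4%) and 3 fell (23.1%), beside 4.02% and 1.62% of all genes. Cxcl16, the ligand of CXCR6, had 277 and 271 TPM with DLL4 and TGF-beta, against 98.2 and 97.5 TPM with DLL4 (log2 difference 1.48 ± 0.05, adjusted p = 2.36e-10). Cxcl12, the ligand of CXCR4 and a stromal marker, rose by 2.12 ± 0.13, and Ccl6, which neighbours Ccl9 in one cluster, fell (-1.21 ± 0.10). Ccl5 varied between replicates, with 1.14 and 5.88 TPM with DLL4 and TGF-beta and 17.2 and 9.88 TPM with DLL4. It was called lower (-1.88 ± 0.53, adjusted p = 0.0134), and lost the call without DLL4 replicate 1 (adjusted p = 0.111), without DLL4 and TGF-beta replicate 1 (0.155) and in a fit of these 4 libraries alone (0.0597).

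Of 15 chemokine and chemoattractant receptors tested, 5 rose (33.3%) and 3 fell (20.0%), beside 4.02% and 1.62% of all genes. The list's median of 0.16 became -0.05 after quantile normalization. Cxcr4 had 444 and 444 TPM with DLL4 and TGF-beta, against 193 and 204 TPM with DLL4 (log2 difference 1.16 ± 0.06, adjusted p = 4.47e-09). Ccr1 had 43.05 and 47.03 TPM with DLL4 and TGF-beta, against 111 and 109 TPM with DLL4 (log2 difference -1.27 ± 0.16, adjusted p = 3.69e-05). Both genes' libraries were separate by group. The formyl peptide receptor genes Fpr1 (1.50 ± 0.21) and Fpr2 (1.07 ± 0.24) and the C5a receptor gene C5ar2 (1.01 ± 0.10) rose with Cxcr4 and Cx3cr1, and Ccr3 (-1.95 ± 0.12) fell with Ccr1. C5ar2 missed 2-fold without DLL4 replicate 1 (0.94), without DLL4 and TGF-beta replicate 2 (0.99) and after quantile normalization (0.897). Fpr2 did so without DLL4 replicate 2 (0.99), without DLL4 and TGF-beta replicate 1 (0.99) and after quantile normalization (0.96).

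Interferon-stimulated genes were lower in part. Of 20 tested members 4 fell (20.0%, beside 1.62% of all genes) and none rose, with a median difference of -0.64. The number that fell was 9 after quantile normalization and 8 with limma-voom. Oas3, one of the double-stranded RNA sensors of the OAS family, had 5.29 and 5.07 TPM with DLL4 and TGF-beta, against 32.3 and 30.97 TPM with DLL4 (log2 difference -2.40 ± 0.10, adjusted p = 1.26e-09). Irf7, the transcription factor that amplifies type I interferon, had 4.94 and 5.93 TPM with DLL4 and TGF-beta, against 15.1 and 16.4 TPM with DLL4 (log2 difference -1.39 ± 0.24, adjusted p = 0.00051). TGF-beta libraries were the lower ones for each. Oas2 fell (-1.74 ± 0.17), and Ifit1 fell (-1.03 ± 0.20) but missed 2-fold without DLL4 replicate 1 (-0.91) or without DLL4 and TGF-beta replicate 2 (-0.89). None of 9 guanylate-binding protein genes was called by limma or limma-voom, and 2 had an unadjusted p below 0.05.

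Of 14 tested inflammatory cytokine and enzyme genes, out of 21 on the list, 3 rose (21.4%, beside 4.02% of all genes) and none fell. Il1b had 37.2 and 34.1 TPM with DLL4 and TGF-beta, against 8.33 and 7.34 TPM with DLL4 (log2 difference 2.05 ± 0.26, adjusted p = 3.31e-05). Cxcl2, a neutrophil attractant, had 4.35 and 4.86 TPM with DLL4 and TGF-beta, against 0.832 and 1.57 TPM with DLL4 (log2 difference 1.37 ± 0.22, adjusted p = 0.000263). Ptgs2 was the other member called, and all 3 were higher in each TGF-beta library. Tnf, at 12.8 and 13.4 TPM with DLL4 and TGF-beta and 10.2 and 12.97 TPM with DLL4, had an adjusted p of 0.48.

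Pattern-recognition receptors moved both ways. Tlr2, which senses bacterial lipopeptides, had 34.4 and 32.1 TPM with DLL4 and TGF-beta, against 9.71 and 11.9 TPM with DLL4 (log2 difference 1.54 ± 0.09, adjusted p = 1.77e-08). Tlr1, its partner, fell instead, with 10.5 and 10.6 TPM with DLL4 and TGF-beta, against 30.6 and 33.3 TPM with DLL4 (log2 difference -1.51 ± 0.09, adjusted p = 1.85e-08). Cd14, the lipopolysaccharide co-receptor, rose by 1.27 ± 0.06, which made 2 higher and 1 lower of 15 tested. These are 13.3% and 6.7%, beside 4.02% and 1.62% of all genes. Among 6 Fc receptor genes, Fcgr4 fell (-1.10 ± 0.09) and none rose. Of 11 complement genes tested, 2 fell (18.2%), among them Cfp, properdin (-1.39 ± 0.04), and Vsig4 rose (9.1%). Of 9 MHC class II genes tested, none was called by limma or limma-voom, and 1 had an unadjusted p below 0.05. H2-Ab1 had 345 and 353 TPM with DLL4 and TGF-beta and 365 and 367 TPM with DLL4. None of 13 genes of MHC class I presentation was called by limma or limma-voom, and 8 had an unadjusted p below 0.05.

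Transcription factor genes of macrophages were called in 3 of 23 cases. These were 1 higher (4.3%) and 2 lower (8.7%), beside 4.02% and 1.62% of all genes. Runx3 had 75.1 and 72.5 TPM with DLL4 and TGF-beta, against 30.7 and 32.01 TPM with DLL4 (log2 difference 1.21 ± 0.10, adjusted p = 6.2e-07). Egr2, an early growth response factor, had 17.9 and 16.7 TPM with DLL4 and TGF-beta, against 64.1 and 61.9 TPM with DLL4 (log2 difference -1.81 ± 0.09, adjusted p = 4.27e-09). Pparg, the nuclear receptor of alveolar macrophages and lipid metabolism, had 13.6 and 11.4 TPM with DLL4 and TGF-beta, against 29.1 and 27.4 TPM with DLL4 (log2 difference -1.12 ± 0.10, adjusted p = 1.3e-06). Runx3 was higher and the other pair lower in each TGF-beta library. Egr1, from a list of immediate early genes, rose by 1.25 ± 0.16.

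Of 15 monocyte genes tested, Fn1 and Cd177, a surface protein of neutrophils and monocytes, rose and S100a4 fell. These are 13.3% higher and 6.7% lower, beside 4.02% and 1.62% of all genes. Cd177 rose by 1.04 ± 0.14 and missed 2-fold without DLL4 replicate 1 (0.95) and after quantile normalization (0.93). Of 12 scavenger receptor genes tested, Cxcl16 and Olr1, the oxidized lipoprotein receptor LOX-1, rose (1.41 ± 0.16 for Olr1), and Cd36, Clec7a and Marco fell. These are 16.7% higher and 25.0% lower. Growth factor and cytokine receptor genes of macrophages were not called in any of 12 cases by limma or limma-voom, with 9 at an unadjusted p below 0.05. Of 22 lysosomal genes, 1 was called, as higher (4.5%, beside 4.02% of all genes).

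Osteoclast-type genes split, with 2 of 10 higher and 2 lower (20.0% each, beside 4.02% and 1.62% of all genes). Dcstamp, needed for macrophage and osteoclast fusion, had 3.85 and 2.87 TPM with DLL4 and TGF-beta, against 31.3 and 28.6 TPM with DLL4 (log2 difference -2.84 ± 0.14, adjusted p = 4.36e-09). Atp6v0d2, a proton pump subunit, fell (-1.08 ± 0.09), whereas Car2, carbonic anhydrase 2, rose by 1.63 ± 0.22 and Mmp9 rose as given above. Acp5, the tartrate-resistant phosphatase, stood at 319 and 311 TPM with DLL4 and TGF-beta and 408 and 400.5 TPM with DLL4 and was not called.

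Genes of the amino acid stress response leaned upward, mostly by less than 2-fold. All 15 tested genes of a list of ATF4 targets had a difference above 0, beside 7201 of all 10908 tested genes. The list's median was 0.82. Of these, 3 rose (20.0%, beside 4.02% of all genes), or 5 with limma-voom. Slc7a5, the large neutral amino acid transporter, had 57.1 and 52.7 TPM with DLL4 and TGF-beta, against 22.8 and 24.05 TPM with DLL4 (log2 difference 1.19 ± 0.10, adjusted p = 5.48e-07). Aldh1l2, of mitochondrial folate metabolism, rose by 1.17 ± 0.15. Psat1, of serine synthesis, rose by 1.01 ± 0.09 and missed 2-fold without DLL4 and TGF-beta replicate 1 (0.98) and after quantile normalization (0.95). Of 8 arginine metabolism genes 3 rose: the mitochondrial arginase gene Arg2, with 5.12 and 6.26 TPM with DLL4 and TGF-beta, against 1.06 and 0.642 TPM with DLL4 (1.86 ± 0.23), the transporter gene Slc7a2 (1.19 ± 0.13) and Ass1 (1.15 ± 0.17).

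Of 22 cell-cycle genes tested, Pcna alone was called, as lower (4.5%, beside 1.62% of all genes). Of the 22, 17 had a difference above 0 and 5 below it. Their median was 0.23, or 0.05 after quantile normalization. By limma, 11 had an unadjusted p below 0.05. Pcna had 83.2 and 87.1 TPM with DLL4 and TGF-beta, against 175 and 169 TPM with DLL4 (log2 difference -1.01 ± 0.07, adjusted p = 2.34e-07), and missed 2-fold without either replicate 1 (-0.98 each) and after quantile normalization (-0.95). Of 17 genes of glycolysis and hypoxia, Vegfa rose (1.01 ± 0.10) and Ndrg1 fell (-1.19 ± 0.08). Each is 5.9% of the list's tested genes, beside 4.02% of all genes called higher and 1.62% called lower. Vegfa missed 2-fold without DLL4 replicate 1 (0.95), without DLL4 and TGF-beta replicate 2 (0.98) and after quantile normalization (0.93). Among 10 tested genes for uptake of dying cells, Axl, Itgav, Cd300lf (1.86 ± 0.15) and Thbs1 (1.12 ± 0.13) rose and none fell, although Thbs1 missed 2-fold without DLL4 and TGF-beta replicate 2 (0.95).

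**Figure D3:**
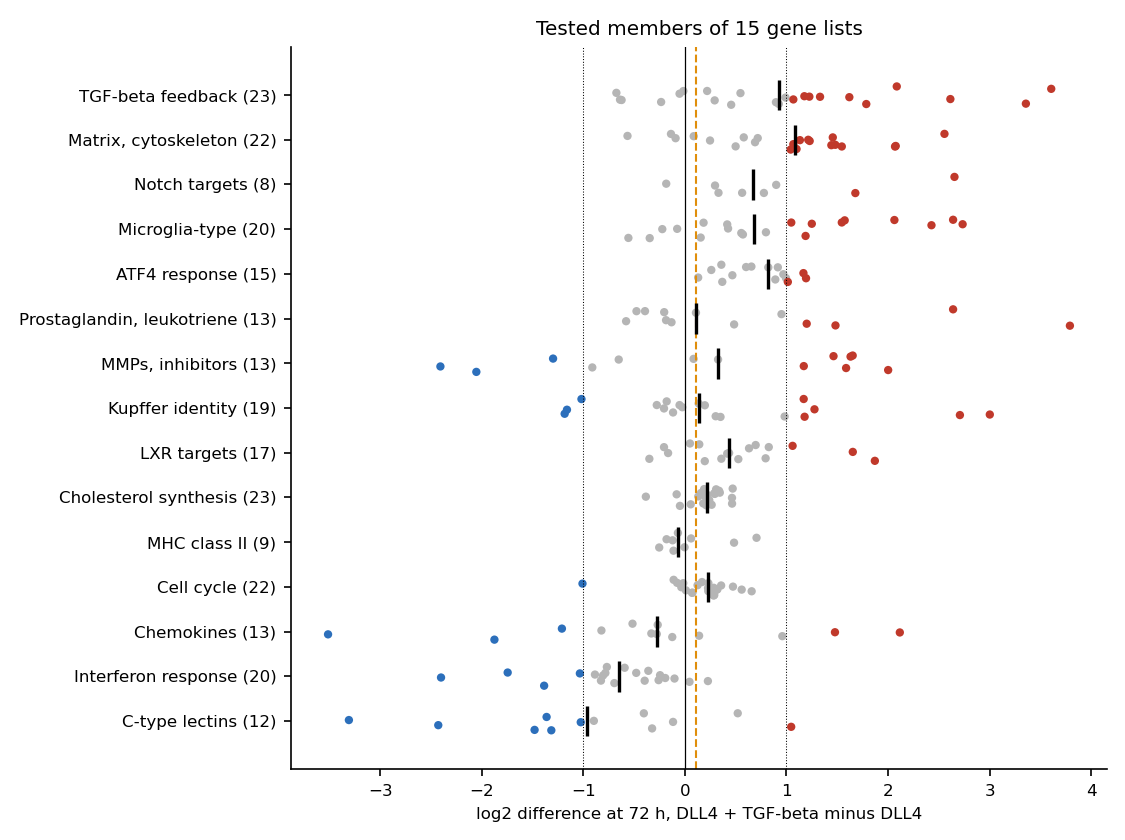
Differences at 72 h of the tested members of 15 gene lists, on a log2 scale, DLL4 and TGF-beta minus DLL4. Each point is a gene, black bars are list medians, the dashed line is the median of all tested genes (0.11) and dotted lines mark 2-fold. The matrix list (median 1.08) and the TGF-beta feedback list (0.92) sit highest, and the C-type lectin list (-0.96) sits low.

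Markers of other blood cells were also followed. The summed level of 14 neutrophil markers was 8148 and 8110 TPM with DLL4 and TGF-beta, against 6315 and 6193 TPM with DLL4. Of 13 tested, Cxcr2 (2.46 ± 0.12) and Retnlg (1.62 ± 0.21) rose, and the granule protease genes Ctsg (-2.00 ± 0.15) and Prtn3 (-1.18 ± 0.27) and the myeloperoxidase gene Mpo (-2.16 ± 0.19) fell. The called neutrophil markers are 15.4% higher and 23.1% lower, beside 4.02% and 1.62% of all genes. Prtn3 missed 2-fold without DLL4 and TGF-beta replicate 1 (-0.99). Of 12 macrophage markers Lyz2 (1.09 ± 0.06) and Cd14 rose, and the call of Lyz2 was lost after quantile normalization (0.85). Of the 12, 8 had a difference below 0 and 4 above it, beside 3699 below and 7201 above among all tested genes. The median of the 12 was -0.19, and none was called lower. Cd4 rose by 1.41 ± 0.30, at 31.1 and 32.4 TPM with DLL4 and TGF-beta and 9.98 and 12.7 TPM with DLL4, while 8 of 11 lymphocyte markers were under 1 TPM in all 4 libraries. Of 8 endothelial markers, 6 were under 1 TPM in all 4 libraries and neither of the 2 tested was called by limma or limma-voom, with 1 at an unadjusted p below 0.05. None of 6 dendritic cell markers tested was called by limma, with 3 at an unadjusted p below 0.05 and 2 called higher by limma-voom. The 8 mast cell and basophil markers summed to 5.257 and 4.379 TPM with DLL4 and TGF-beta, against 6.046 and 7.148 TPM with DLL4, and none was tested. Of the 3 erythroid and megakaryocyte markers tested, Itga2b rose (1.02 ± 0.25) and missed 2-fold without DLL4 replicate 1 (0.95), without DLL4 and TGF-beta replicate 2 (0.91) and after quantile normalization (0.94). The part of such cells in the results above was not tested.

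The same contrast at 24 h used separate libraries. There 252 genes were higher and 162 lower (2.31% and 1.49% of tested genes, 3.8% in all) with TGF-beta. Of the 439 genes higher at 72 h, 136 (31.0%) were also called higher at 24 h, which is 54.0% of the 252, and 2 were called lower. Of the 177 genes lower at 72 h, 58 (32.8%) were called lower at 24 h, which is 35.8% of the 162. Ccl9 fell at both times. At 24 h it had 16.8 and 14.4 TPM with DLL4 and TGF-beta, against 197 and 204 TPM with DLL4 (log2 difference -3.60 ± 0.07), and the responses at 72 h and 24 h differed by 0.09 ± 0.10, adjusted p = 0.552.

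The difference between the 2 responses was itself tested, as the response at 72 h minus the response at 24 h. By this test 574 genes were called (5.26%), 441 above 0 (4.04%) and 133 below 0 (1.22%), or 342 and 203 after quantile normalization. Ptgs2 stood furthest above 0: at 24 h it had 0.783 and 0.821 TPM with DLL4 and TGF-beta and 0.993 and 1.03 TPM with DLL4, and its response differed by 3.95 ± 0.16, adjusted p = 1.34e-08. Adamdec1 had 3.05 and 1.44 TPM with DLL4 and TGF-beta and 1.37 and 1.83 TPM with DLL4 at 24 h, a difference of 3.64 ± 0.28 between the responses. For neither gene was there a called response at 24 h. Postn (2.70 ± 0.17), Itgae (2.61 ± 0.27), Vsig4 (2.63 ± 0.41), Cnn1 (2.72 ± 0.28) and Csrp2, a LIM-domain protein of smooth muscle (2.79 ± 0.20), were also more positive at 72 h. Postn, Cnn1 and Csrp2 are also genes of stromal and smooth-muscle cells, whose part in this difference was not tested. Ccl2, the monocyte attractant, came above 0 from the other side. Its levels at 24 h were 1.41 and 0.493 TPM with DLL4 and TGF-beta, against 27.05 and 34.02 TPM with DLL4, a difference of -4.05 ± 0.25, and at 72 h they were 7.49 and 12.9 TPM with DLL4 and TGF-beta and 11.7 and 18.1 TPM with DLL4, with an adjusted p of 0.124 and a difference between responses of 3.53 ± 0.36.

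**Figure D4:**
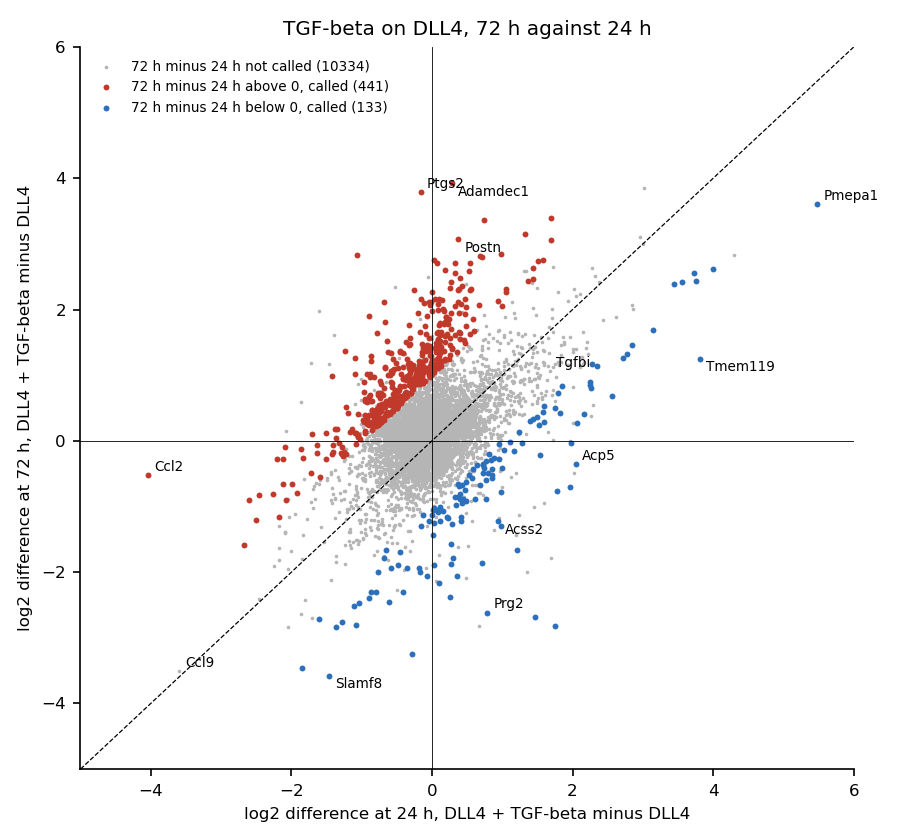
Each point is a tested gene, with its log2 difference at 24 h on the horizontal axis and at 72 h on the vertical axis, both DLL4 and TGF-beta minus DLL4. Coloured points are the 441 genes with a more positive and the 133 with a more negative difference at 72 h than at 24 h.

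Among the genes whose difference between responses was below 0, some rose more at 24 h. Tmem119 had 65.5 and 66.2 TPM with DLL4 and TGF-beta, against 3.32 and 4.22 TPM with DLL4 at 24 h, and 11.98 and 12.2 TPM with DLL4 and TGF-beta, against 3.94 and 5.12 TPM with DLL4 at 72 h. Its response was positive at both times and smaller at 72 h (response at 72 h minus response at 24 h -2.57 ± 0.23, adjusted p = 4.38e-06). Pmepa1 likewise had 84.9 and 84.4 TPM with DLL4 and TGF-beta, against 0.726 and 1.14 TPM with DLL4 at 24 h, a difference between responses of -1.87 ± 0.16. Acp5 was higher at 24 h, with 308 and 342 TPM with DLL4 and TGF-beta, against 73.3 and 81.8 TPM with DLL4, and its responses differed by -2.41 ± 0.20. Others fell at 72 h. Slamf8 was called lower at both times, by -1.47 at 24 h and -3.58 at 72 h, a difference between responses of -2.11 ± 0.23. Mpo, the acetyl-CoA synthetase gene Acss2, the growth factor receptor gene Met, Prg2 and Ccl5 were called lower at 72 h and not called at 24 h. Their differences between responses were -2.27 ± 0.26 for Mpo, -2.17 ± 0.13 for Acss2, -2.08 ± 0.16 for Met, -3.40 ± 0.58 for Prg2 and -2.15 ± 0.75 for Ccl5 (adjusted p = 0.047).

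**Figure D5:**
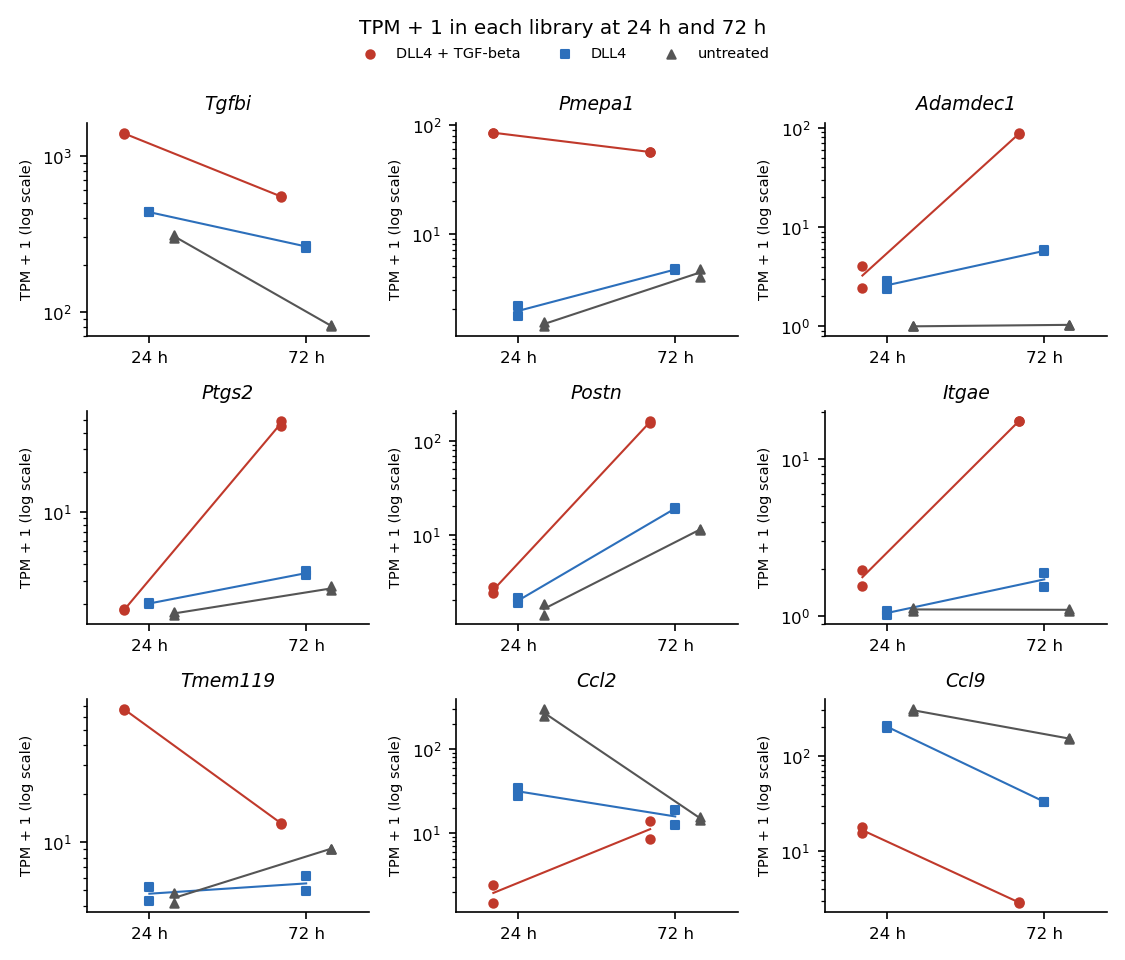
Levels of 9 genes as TPM + 1 on a logarithmic axis at 24 h and 72 h, for DLL4 and TGF-beta, DLL4 and untreated BMDMs. Points are single libraries, and lines join the means of a treatment. Adamdec1, Ptgs2, Postn and Itgae separate DLL4 and TGF-beta from DLL4 at 72 h, whereas Ccl9 and Pmepa1 separate at both times.

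BMDMs of another genotype gave a second view of the response, at 24 h. In the Smad4 table, Smad4 itself had 8.56 and 10.1 TPM with DLL4 and TGF-beta in Smad4-deleted BMDMs, against 20.4 and 23.2 TPM in Smad4 flox/flox BMDMs, and with DLL4 alone 9.96 and 10.2 TPM, against 23.03 and 20.8 TPM. The deleted cells thus kept a reduced Smad4 signal. TGF-beta on DLL4 called 82 genes in Smad4-deleted BMDMs (0.799%), 60 higher (0.584%) and 22 lower (0.214%), and 684 in Smad4 flox/flox BMDMs (6.66%), 269 higher (2.62%) and 415 lower (4.04%). Higher genes made up 49.1% of the calls in flox/flox BMDMs after quantile normalization, against 39.3% without it. Of the 439 genes higher at 72 h in C57BL/6J BMDMs, 261 were tested there. Of these, 40 (15.3%) were called higher in Smad4-deleted BMDMs and 128 (49.0%) in flox/flox BMDMs. Of the genes lower at 72 h and tested there, 5 (3.14%) were called lower in Smad4-deleted BMDMs and 60 (37.7%) in flox/flox BMDMs. These make 66.7% of the 60 and 47.6% of the 269 genes called higher, and 22.7% of the 22 and 14.5% of the 415 genes called lower.

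The difference between genotypes, flox/flox minus deleted, was called for 229 genes (2.23%), 86 above 0 (0.838%) and 143 below 0 (1.39%), or 114 and 101 after quantile normalization. Ccl9 had 44.98 and 46.1 TPM with DLL4 and TGF-beta, against 92.1 and 98.7 TPM with DLL4 in Smad4-deleted BMDMs. In flox/flox BMDMs it had 7.26 and 7.996 TPM with DLL4 and TGF-beta, against 83.5 and 87.3 TPM with DLL4, and the responses differed by -2.27 ± 0.14, adjusted p = 6.48e-07. Ccl9 fell in both genotypes, and by more in flox/flox BMDMs. Pmepa1 rose by 3.35 ± 0.14 in Smad4-deleted and by 5.32 ± 0.14 in flox/flox BMDMs, and the responses differed by 1.96 ± 0.19. Clec4a1 fell in both genotypes too, with a log2 difference of -1.33 ± 0.12 in Smad4-deleted and -2.98 ± 0.12 in flox/flox BMDMs, and the responses differed by -1.65 ± 0.18. Among all genes higher at 72 h and tested there, 48 (18.4%) had a difference between genotypes called above 0, 55.8% of the 86, and of those lower at 72 h 30 (18.9%) had one called below 0, 21.0% of the 143.

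In bone marrow monocytes at 48 h, TGF-beta on DLL4 called 902 genes (8.81%), 244 higher (2.38%) and 658 lower (6.43%), or 336 and 473 after quantile normalization. Of 230 tested genes that were higher in BMDMs at 72 h, 79 (34.3%) were called higher in monocytes, 32.4% of the 244, and 28 were called lower. Of 141 tested genes that were lower in BMDMs, 54 (38.3%) were called lower, 8.21% of the 658, and 4 were called higher. S100a4 fell in both: in monocytes it had 1.39 and 0.748 TPM with DLL4 and TGF-beta, against 35.2 and 29.4 TPM with DLL4 (log2 difference -4.02 ± 0.18). Fcrls and Tlr2 were called in opposite directions. In monocytes Fcrls had 1.3 and 1.03 TPM with DLL4 and TGF-beta, against 11.02 and 11.5 TPM with DLL4 (log2 difference -2.51 ± 0.10), and Tlr2 had 1.78 and 2.11 TPM with DLL4 and TGF-beta, against 16.3 and 15.9 TPM with DLL4 (log2 difference -2.54 ± 0.07). The tables were normalized separately, and the difference between cell types was not tested.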

How the data were processed

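RNA-seq libraries of C57BL/6J BMDMs were compared at 72 h, 2 with DLL4 and TGF-beta and 2 with DLL4. The deposited values are TPM per gene, which the authors computed from strand-marking (dUTP) libraries, per the labels' protocols. The submitters' processing notes name STAR, HOMER and the build mm10, and no versions are given there. TPM values were transformed to log2(TPM + 1). Genes with at least 4 TPM in at least 2 libraries were tested with limma 3.58.1 in R 4.3.3, over all 18 libraries of the table in 9 groups, with Benjamini-Hochberg adjustment over all tested genes. The Smad4 and monocyte tables were fitted separately, each over its own libraries. The fit was tested on simulated data. Dividing TPM by the worth of 1 read gave whole reads, within 0.1, for 100% of the low values, where this was checked. Higher values were rounded to whole reads, and limma-voom on these reads called 737 genes at 72 h. A gene was called at an adjusted p below 0.05 and at least 2-fold. The members and the 46 gene lists were chosen with earlier results of these data known. Genes named were the 15 with the largest differences in each direction among called genes whose higher group averaged 10 TPM or more and whose groups do not overlap, passing over unnamed transcripts and small RNAs, the 8 in each direction for 72 h minus 24 h by the same rule without the overlap part, and up to 5 called genes of each list. Other list members were named after their values were seen. Some called or listed genes are not reported here. Alternatives were a pseudocount of 0.25, no filter, quantile normalization, the replicate number as a block, a fit of only the groups compared, leaving out each library, and limma-voom on recovered reads, which was added after seeing the data. Same-numbered libraries did not deviate together. TPM values carry no interval for counting error here.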

Additional observations from a re-analysis of the deposited data

Results flagged for a closer look

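Genes are listed here because their responses to TGF-beta on DLL4 differed between 2 settings by a direct test of the difference, limma's interaction with Benjamini-Hochberg adjustment over all genes, at an adjusted p below 0.05 and at least 2-fold. The differences are on the log2 scale with their SE, and no explanation was tested. For the response at 72 h minus the response at 24 h, 31 of the genes named for the size of their difference qualified. Part of this count was fixed by the naming rule, because some of these genes were named for being called in this same test. The others were named for a large difference at 72 h, which enters the test, so the count measures no frequency. The most positive differences were Ptgs2 3.95 ± 0.16, Adamdec1 3.64 ± 0.28, Ccl2 3.53 ± 0.36, Csrp2 2.79 ± 0.20 and Cnn1 2.72 ± 0.28. The next differences were Postn 2.70 ± 0.17, Vsig4 2.63 ± 0.41, Itgae 2.61 ± 0.27, Tnc 2.12 ± 0.25 and Mirt2 2.08 ± 0.31. Smaller ones were Cd101 1.86 ± 0.23, Nt5e 1.82 ± 0.21, Plet1 1.70 ± 0.41 and Lag3 1.36 ± 0.27. The most negative differences were Prg2 -3.40 ± 0.58, Tmem119 -2.57 ± 0.23, Acp5 -2.41 ± 0.20, Mpo -2.27 ± 0.26 and Acss2 -2.17 ± 0.13. The next differences were Ccl5 -2.15 ± 0.75, Slamf8 -2.11 ± 0.23, Met -2.08 ± 0.16, Pmepa1 -1.87 ± 0.16 and Col6a1 -1.84 ± 0.24. Smaller ones were Ppbp -1.72 ± 0.53, F7 -1.61 ± 0.27, Dcstamp -1.48 ± 0.19, Cdkn1c -1.47 ± 0.20 and Eef1a2 -1.44 ± 0.25. Further ones were S100a4 -1.41 ± 0.19 and Layn -1.11 ± 0.18.

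For the response in Smad4 flox/flox BMDMs minus the response in Smad4-deleted BMDMs, 12 of the genes named for the size of their difference qualified. Differences above 0 were Tmem119 2.31 ± 0.19, Pmepa1 1.96 ± 0.19, Fam189a2 1.59 ± 0.30, Dnase1l3 1.51 ± 0.15 and Acp5 1.07 ± 0.12. Differences below 0 were Ccl9 -2.27 ± 0.14, Ednrb -1.70 ± 0.18, Clec4a1 -1.65 ± 0.18, F7 -1.29 ± 0.32 and S100a4 -1.13 ± 0.11. The next differences were Cd300ld -1.12 ± 0.12 and Slamf8 -1.02 ± 0.24.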

How the results depend on the processing

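At 72 h the 616 calls became 713 with a pseudocount of 0.25, 728 with no filter on low values, 637 after quantile normalization, 624 in a fit of only the groups compared, 615 with the replicate number as a block and 737 with limma-voom on recovered reads, a setting chosen after seeing the data. Leaving out each library in turn gave 599 to 647 calls. Across these 10 alternatives 466 genes were called throughout, and in none of them was a gene called at 72 h called in the opposite direction. Of 162 named genes, 147 were called at 72 h. Of these, 122 kept the call under every alternative and 25 lost it under at least 1. Of genes named but not called, quantile normalization turned the sign of Cd68 (0.24) and H2-Ab1 (0.0238), and Smad3 was at 0.0085 and -0.45 without replicate 1 and without replicate 2 of DLL4 and TGF-beta. The correlation of deviations between libraries with the same replicate number was 0.0334 at 72 h. No pairing by number was visible in this value, which cannot show that same-numbered samples share no animal or culture. Over all their alternatives the other counts ranged from 396 to 554 at 24 h, 537 to 661 for 72 h minus 24 h, 646 to 830 in Smad4 flox/flox BMDMs, 59 to 117 in Smad4-deleted BMDMs, 190 to 325 for the difference between genotypes and 809 to 1155 in monocytes. The cause of these shifts was not tested. With 2 libraries a group, precision is limited by their number.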

Other observations

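Libraries of untreated BMDMs and of BMDMs given DLL4, TGF-beta and DMHCA at 72 h set the main genes in a wider frame, as values only. The differences from these groups were not tested here. Adamdec1 had 14.3 and 19.6 TPM with DLL4, TGF-beta and DMHCA, 84.6 and 88.3 TPM with DLL4 and TGF-beta, 4.7 and 4.81 TPM with DLL4, and 0.034 and 0.036 TPM in untreated BMDMs. Itgae had 0.062 and 0.465 TPM with DLL4, TGF-beta and DMHCA, against 16.5 and 16.5 TPM with DLL4 and TGF-beta, and 0.087 and 0.114 TPM in untreated BMDMs. Both genes were lower in the DMHCA libraries than with DLL4 and TGF-beta alone. Pmepa1 stood at 63.5 and 68.5 TPM with DLL4, TGF-beta and DMHCA, against 56.4 and 55.3 TPM with DLL4 and TGF-beta, and at 3.01 and 3.76 TPM in untreated BMDMs. Abca1, an LXR target, had 458 and 329 TPM with DLL4, TGF-beta and DMHCA, against 59.6 and 64.4 TPM with DLL4 and TGF-beta, and 43.7 and 42.4 TPM in untreated BMDMs. Some risers were not low in untreated BMDMs. Cd14 had 116.5 and 112.9 TPM there, 117.3 and 106.6 TPM with DLL4 and TGF-beta and 46.1 and 45.6 TPM with DLL4. Lyz2 had 22148 and 21415 TPM in untreated BMDMs, 13189 and 12916 TPM with DLL4 and TGF-beta and 6208.7 and 6070.6 TPM with DLL4.

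The genes that fell on addition of TGF-beta did not share one level in untreated cells. Ccl9 was highest there, at 152.9 and 149 TPM in untreated BMDMs, beside 1.88 and 1.9 TPM with DLL4 and TGF-beta and 32.1 and 31.9 TPM with DLL4. Slamf8 had 1.18 and 1.58 TPM with DLL4 and TGF-beta, 26.7 and 27.96 TPM with DLL4 and 16.8 and 17.6 TPM in untreated BMDMs, so DLL4 alone was the highest. Mmp13 had 57.4 and 57.3 TPM with DLL4 and TGF-beta, 237 and 246 TPM with DLL4 and 39.8 and 37.4 TPM in untreated BMDMs, with the DLL4 libraries again above the others.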
